A study of Mus musculus with 56 samples.

Results

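The carnitine shuttle moves long-chain fatty acids into mitochondria, and 7 of its genes were followed in the mouse heart: Slc22a5, Cpt1a, Cpt1b, Slc25a20, Cpt2, Crat and Mlycd. They were chosen by symbol for their role in the shuttle, with earlier results of these data known. All 7 were found among the 22864 genes of the series. PolyA RNA was sequenced from hearts of females of the inbred strain C57BL/6J at 9 weeks of age. After entrainment to 12 h of light and 12 h of darkness with free access to chow, mice were fed for 7 days either only by day (daytime-restricted feeding, DRF) or only by night (nighttime-restricted feeding, NRF, which matches the hours when mice usually eat). Collection spanned ZT0 to ZT24 (zeitgeber time, in hours, where ZT0 is the start of light) in 7 steps, with 4 replicates for each of the 14 groups and 56 libraries in all. No source read here says that the replicates of a group came from separate mice, and if some did not, the p-values measure technical spread in part.

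Long-chain acyl-CoA cannot cross the inner mitochondrial membrane, so the acyl group travels on carnitine. Slc22a5 encodes the carnitine transporter of the cell membrane (OCTN2). Carnitine palmitoyltransferase 1 of the outer mitochondrial membrane makes acylcarnitine and exists as a liver type (Cpt1a) and a muscle type (Cpt1b). Slc25a20 encodes the translocase that exchanges acylcarnitine for carnitine across the inner membrane, and Cpt2 encodes the enzyme that restores acyl-CoA inside. Crat encodes carnitine acetyltransferase, which handles short acyl groups. Mlycd encodes malonyl-CoA decarboxylase, which removes the inhibitor of both forms of carnitine palmitoyltransferase 1. The adult heart burns fatty acids as a main fuel, and the muscle type is textbook knowledge as its principal isoform.

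Levels are given as TPM, reads per base of exon scaled to 1 sum per library, recomputed from reads recovered from the deposited values, and libraries held 29.5 to 53.4 M recovered reads (median 37.7 M). The 6 cardiomyocyte markers summed to 22876 to 31151 TPM under DRF and 26903 to 36494 under NRF. All 4 atrial markers were detected, and their sum ranged from 94.2 to 5431 TPM under DRF (median 1785) and from 128 to 4264 under NRF (median 604). The 3 red cell markers (1287 to 57400 TPM), the 5 white adipocyte markers (2.49 to 75.8 TPM), the 3 brown adipocyte markers (36.7 to 168 TPM, with Ucp1 at 0 in its lowest library) and the 3 hepatocyte markers (0.255 to 66.6 TPM, with Alb at 0 in its lowest library) also varied between libraries. Of the 4 skeletal muscle markers, Actn3 was listed, at no more than 3.02 TPM. DRF ZT4 replicate 2 was the highest library for the red cell, hepatocyte, fibroblast and skeletal muscle markers. The hepatocyte markers had a median sum of 3.31 TPM under DRF and 1.01 under NRF, and the endothelium markers of 361 and 407. The part of these tissues in the values below was not tested.

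Libraries were compared with the mean of each group over 1093 genes whose rhythm differed between regimens, the 7 shuttle genes left out. The library labelled DRF ZT4 replicate 1 correlated at -0.29 with the rest of its own group and at 0.72 with NRF ZT8. The library labelled NRF ZT8 replicate 1 correlated at -0.19 with the rest of its own group and at 0.67 with DRF ZT4. They were the 2 libraries with a correlation below 0. In all, 10 of 56 libraries correlated best with another group. For NRF ZT0 replicates 1, 2 and 3 it was NRF ZT24, and for NRF ZT24 replicate 2 it was NRF ZT0, the same regimen and clock hour. For 5 of the 10 it was a group of the other regimen. Among these, NRF ZT8 replicate 4 correlated at 0.55 with its own group and at 0.62 with DRF ZT0, and the ZT8 calls of Cpt1a, Mlycd and Slc22a5 were lost without it (limma adjusted p = 0.207, 0.346 and 0.287). DRF ZT4 replicate 1 and NRF ZT8 replicate 1 stay under their labels here. Counts of rhythmic and shifted shuttle genes, and for Cpt1a, Mlycd, Slc22a5 and Cpt2 the peak distances and the calls that use these libraries, are also given without them, an alternative chosen after seeing the data. Values of genes outside the shuttle include them, and counts over the lists without them are given beside the lists.

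Crat and Cpt2 had the highest levels per length, at 201 ± 15.6 and 186 ± 22.4 TPM (SD, n = 56 libraries). Slc25a20 followed at 85.2 ± 8.17 TPM and Mlycd at 84.3 ± 18.5 TPM, whose ranges of 67.0 to 102 and 54.9 to 122 overlapped. Cpt1a stood at 35.9 ± 11.2 TPM and Slc22a5 at 23.2 ± 2.97 TPM. Cpt1b was lowest, at 3.72 ± 0.946 TPM from 96 to 399 reads per library. Cpt1a exceeded Cpt1b in every library, by 5.47-fold to 23.1-fold (median 9.39).

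The level of Cpt1b is uncertain. In the GENCODE M21 annotation of GRCm38, Cpt1b (chromosome 15, 89416405 to 89425863, minus strand) lies wholly inside Gm44502, a protein-coding gene model on the same strand (89416405 to 89429696) that shares 2744 of the 3372 exon bases of Cpt1b (81.4%). How reads that fit both genes were counted is not given in the sources used here, and Gm44502 has no value among the listed genes. The lower level of Cpt1b than of Cpt1a is therefore a statement about the counted reads, and the part of the shared exons was not tested. Cpt1a (chromosome 19, 3322334 to 3385733, plus strand) gave whole reads with a length of 4300 bases, against 7642 bases in that annotation and 4317 bases for its longest transcript there, so its level per length depends on that choice, while comparisons of Cpt1a between libraries do not. Crat shares 59 exon bases with Dolpp1 and 411 with the antisense gene Gm16323, both on the other strand, and the library kit does not mark strand. No exon overlap with another gene model was found for the remaining 5 genes.

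**Figure D1:**
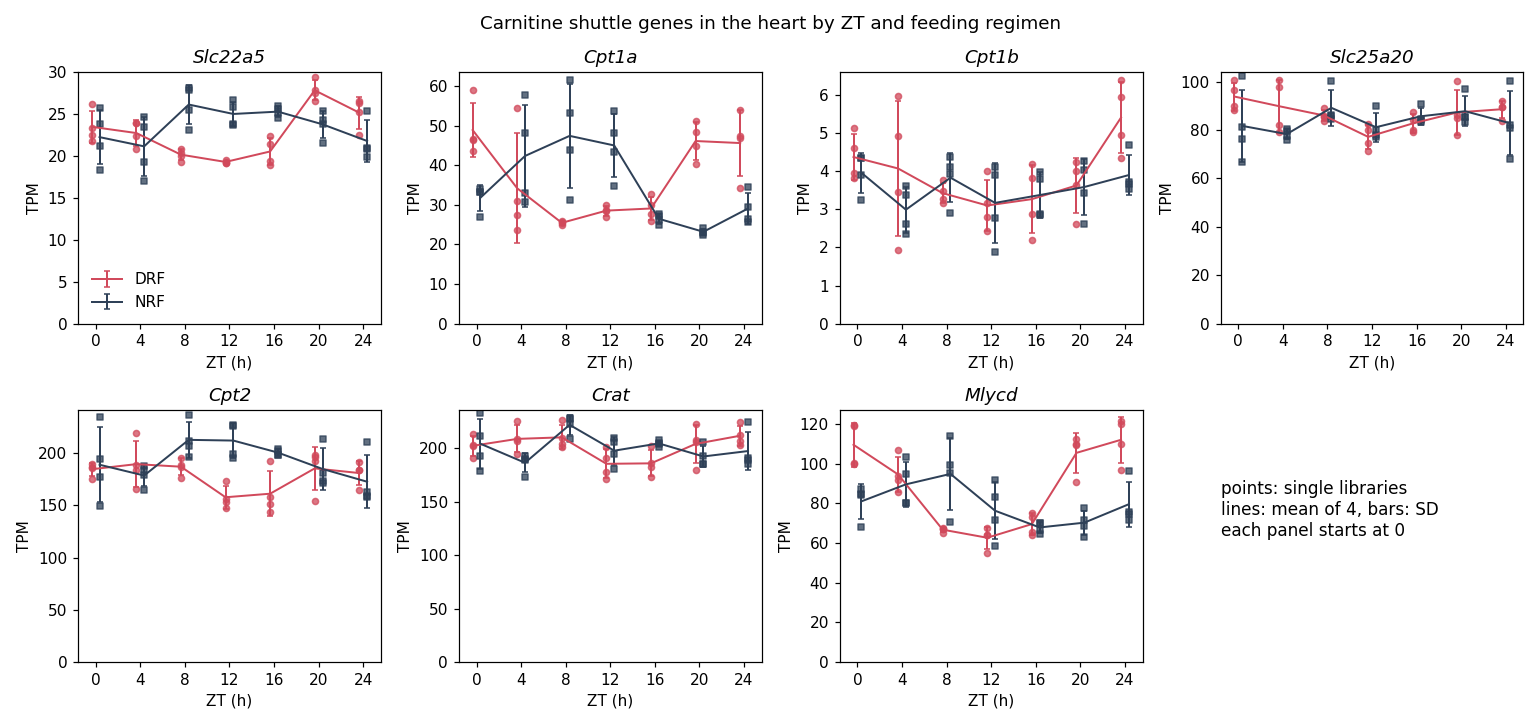
TPM of the 7 shuttle genes against ZT in hours under DRF (circles) and NRF (squares); points are single libraries, lines are means of 4 and bars are SD. Cpt1a and Mlycd were high at ZT20 to ZT24 under DRF and around ZT8 under NRF, while Slc25a20 and Crat stayed within 67.0 to 102 and 171 to 233 TPM.

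A 24-h cosine curve was fitted on log2(TPM + 1) to ask which shuttle genes cycled under each regimen and whether the curves differed. All 7 genes were rhythmic under DRF, where 32.4% of the 13869 genes tested (mean of at least 1 TPM) were called. Under NRF 4 of 7 were rhythmic (Cpt1a, Cpt2, Slc22a5 and Mlycd), against 37.3% of genes tested. The curve differed between regimens by clock time for the same 4 genes, against 27.7%. The median distance between the peaks of the 7 genes was 9.15 h, beside 4.93 h over all genes tested. Both medians include genes without a rhythm call, and of the 7 distances those of Cpt1b, Slc25a20 and Crat use NRF peaks without one (SE 3.81, 3.50 and 2.81 h). Median-of-ratios rescaling moved the distance from 9.77 to 5.76 h for Slc25a20 and from 7.35 to 11.2 h for Crat. Among the 4 genes called by clock time, it moved from 9.15 to 7.455 h for Slc22a5 and from 9.19 to 11.1 h for Cpt2. The changes were smaller for Cpt1a (9.43 to 9.81 h) and Mlycd (6.14 to 6.25 h). Without the 2 libraries that went against their labels, 6 genes were rhythmic under DRF (30% of all genes; Cpt2 had an adjusted p of 0.0519), 4 under NRF (43%) and 5 differed by clock time (30.6%), with Slc25a20 added. Each DRF call for Slc25a20, Crat and Cpt2 was lost when libraries were rescaled by median of ratios, with adjusted p of 0.135, 0.283 and 0.141. Leaving out 1 time point also ended calls. Under DRF these were Cpt1b without ZT0, ZT12, ZT16 or ZT24 (highest adjusted p 0.183), Cpt2 without ZT0, ZT12 or ZT16 (0.169), Slc25a20 without ZT0 or ZT12 (0.187) and Crat without ZT12, ZT16 or ZT24 (0.172). Under NRF they were Cpt2 without ZT8, ZT12 or ZT24 (0.0867) and Slc22a5 without ZT16 or ZT24 (0.0822), while the calls of Cpt1a and Mlycd held under both regimens. Leaving out 1 replicate number of every group, 14 libraries, ended the NRF call of Slc22a5 in all 4 cases (adjusted p 0.0588 to 0.0767) and that of Cpt2 without number 1, 2 or 4 (highest 0.101). Under DRF it ended the calls of Cpt2 and Crat in all 4 cases (highest 0.115 and 0.102), of Slc25a20 without number 2, 3 or 4 (0.0721) and of Cpt1b without number 1, 3 or 4 (0.235). The calls of Cpt1a and Mlycd under both regimens, of Slc22a5 under DRF and all 4 by clock time held in every such case. Of the 14 calls at single times, 2 held in all 4 cases, those of Cpt1a and Mlycd at ZT20. By clock time the Cpt2 call was lost without ZT12 (0.0513), and Crat was called without ZT0 or ZT8 (0.0196 and 0.0464).

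Cpt1a, the liver-type enzyme that starts the shuttle, had the widest cycle. Under DRF its fitted peak lay at ZT22.3 ± 0.592 h (SE) with a peak-to-trough ratio of 1.87 (adjusted p = 1.75e-05). Under NRF the peak lay at ZT7.74 ± 0.492 h with a ratio of 2.01 (adjusted p = 8.72e-06). The peaks were 9.43 ± 0.770 h apart (DRF minus NRF, 95% interval -10.97 to -7.88 h, which did not reach 12 h), and the curves differed by clock time (adjusted p = 1.45e-09). Without the 2 libraries that went against their labels the distance was 9.90 ± 0.640 h.

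At ZT20 the 4 DRF libraries held 48.4, 40.2, 44.7 and 51.1 TPM of Cpt1a, against 23.1, 24.3, 22.9 and 22.5 under NRF. Every DRF library was above every NRF library, by 1.94-fold on the fitted scale (log2 difference 0.96 ± 0.174, SE, adjusted p = 2.47e-04), and the NRF group was the lowest of all 14. At ZT0 the DRF libraries held 59.0, 43.6, 46.5 and 46.3 TPM against 33.3, 26.8, 33.9 and 33.1, again without overlap (log2 difference 0.60 ± 0.174, adjusted p = 0.0176). At ZT24 the DRF libraries held 54.0, 46.8, 34.3 and 47.3 TPM against 25.7, 34.6, 26.5 and 29.5, where replicate 3 of DRF fell just under the highest NRF library (log2 difference 0.62 ± 0.174, adjusted p = 0.0178). ZT20 lies in the dark phase, when DRF mice had no food, and ZT0 and ZT24 lie at its end.

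The order turned by day. At ZT8 the DRF libraries were tightly grouped at 25.4, 25.8, 24.8 and 25.7 TPM, while the NRF libraries held 31.1, 53.1, 43.9 and 61.5 TPM. The groups did not overlap, and Cpt1a was 1.78-fold higher under NRF (log2 difference -0.83 ± 0.174, adjusted p = 0.0160, or -1.01 without the 2 libraries named above). At ZT12 the DRF libraries held 27.0, 30.1, 28.5 and 28.6 TPM against 48.0, 43.4, 53.6 and 34.8 under NRF, also without overlap (log2 difference -0.62 ± 0.174, adjusted p = 0.0209). At ZT16 the values met, at 29.1 ± 2.98 and 26.5 ± 1.21 TPM (SD, n = 4; log2 difference 0.13 ± 0.174). At ZT4 the DRF libraries spread from 23.6 to 54.6 TPM and the log2 difference was -0.33 ± 0.174 (adjusted p = 0.456), or -0.57 (adjusted p = 0.0184) without the 2 libraries named above, the higher DRF value being replicate 1. Single libraries carried several of these calls: the ZT0 call was lost without DRF ZT0 replicate 1 or NRF ZT0 replicate 2, the ZT24 call without DRF ZT24 replicate 1 or NRF ZT24 replicate 3, the ZT8 call without DRF ZT8 replicate 3 or NRF ZT8 replicate 2 or 4, and the ZT12 call without DRF ZT12 replicate 1 or 3 or NRF ZT12 replicate 1 or 3 (highest adjusted p 0.0879, 0.0899, 0.207 and 0.104), while the ZT20 call held without any single library.

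Ordered by mean, the 14 groups of Cpt1a ran from 48.9 ± 6.87 TPM (DRF ZT0) to 23.2 ± 0.759 TPM (NRF ZT20), a 2.11-fold span. Of the 13 pairs of neighbours in that order, 12 overlapped in their ranges, and the exception was DRF ZT8 above NRF ZT20. The upper 6 groups were DRF ZT0, NRF ZT8, DRF ZT20, DRF ZT24, NRF ZT12 and NRF ZT4.

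Mlycd, whose product breaks down malonyl-CoA, had the next widest cycle under DRF, with a peak at ZT23.5 ± 0.384 h and a peak-to-trough ratio of 1.86 (adjusted p = 4.96e-10). Under NRF the ratio was 1.38 with a peak at ZT5.61 ± 0.655 h (adjusted p = 0.00276). The peaks lay 6.14 ± 0.759 h apart (interval -7.66 to -4.61 h; 6.20 ± 0.795 h without the 2 libraries named above), and the curves differed by clock time (adjusted p = 1.31e-08).

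At ZT20 the DRF libraries held 90.5, 112, 109 and 110 TPM of Mlycd against 63.1, 71.5, 77.8 and 68.6 under NRF, a 1.49-fold difference without overlap (log2 difference 0.58 ± 0.115, adjusted p = 6.52e-04). At ZT24 they held 122, 110, 96.6 and 120 TPM against 71.5, 96.3, 74.8 and 75.6, where the closest libraries nearly met (log2 difference 0.49 ± 0.115, adjusted p = 0.00478). At ZT0 the ranges of 99.8 to 119 and 68.1 to 87.1 TPM were again apart (log2 difference 0.43 ± 0.115, adjusted p = 0.00954). By day the sign changed: at ZT8 the DRF libraries held 67.4, 67.1, 65.2 and 67.1 TPM against 95.4, 99.3, 70.6 and 114 under NRF (log2 difference -0.48 ± 0.115, adjusted p = 0.0422, or -0.47 and 0.0249 without the 2 libraries named above). The ZT8 call was lost with the replicate block (adjusted p = 0.0512), with median-of-ratios rescaling (0.0628), without the filter on low values (0.0640), with the deposited values (0.0732) and without any of the 4 DRF ZT8 libraries or NRF ZT8 replicate 2 or 4 (highest adjusted p 0.346) and the ZT0 call without NRF ZT0 replicate 2 (0.0509), while those at ZT20 and ZT24 held without any single library. Without replicate number 1 of every group the ZT24 call was lost too (0.0590).

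Slc22a5, the carnitine importer, cycled with a lower ratio of 1.33 under DRF (peak ZT22.3 ± 0.691 h, adjusted p = 3.85e-05) and 1.20 under NRF (peak ZT13.1 ± 1.11 h, adjusted p = 0.0219). The peaks were 9.15 ± 1.31 h apart (interval 6.53 to 11.8 h), or 8.81 ± 1.38 h without the 2 libraries that went against their labels. The curves differed by clock time (adjusted p = 6.79e-06). As DRF minus NRF this shift had the opposite sign to that of Cpt1a. Counted from the start of the feeding phase, Slc22a5 peaked at 22.3 h under DRF and 1.15 h under NRF, and Cpt1a at 22.3 and 19.7 h. At ZT12 the DRF libraries held 19.2, 19.2, 19.5 and 19.3 TPM, below all NRF libraries at 25.9, 23.9, 26.7 and 23.7 (log2 difference -0.36 ± 0.0848, adjusted p = 0.00653). Lower values under DRF were also called at ZT8 (log2 difference -0.36 ± 0.0848, adjusted p = 0.0422) and ZT16 (log2 difference -0.29 ± 0.0848, adjusted p = 0.0291), in both cases without overlap, and the ZT8 value was -0.37 (adjusted p = 0.0198) without the 2 libraries. The ZT8 call was lost with the replicate block (adjusted p = 0.0512), without the filter (0.0640) and with the deposited values (0.0604), and the ZT16 call with median-of-ratios rescaling (0.136) and the deposited values (0.116). At ZT20 all DRF libraries, 26.6 to 29.4 TPM, were above the NRF range of 21.6 to 25.4, yet the difference of 0.22 ± 0.0848 on the log2 scale did not pass, and it passed after median-of-ratios rescaling (adjusted p = 0.00517), with voom (0.0212) and with the deposited values (0.00412). The ZT8 and ZT16 calls were each lost without any 1 of 6 of the 8 libraries of those times (highest adjusted p 0.287 and 0.157), those kept being NRF ZT8 replicates 1 and 3 and DRF ZT16 replicates 1 and 2.

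Cpt2, the inner enzyme, cycled within 1.18-fold under DRF (peak ZT2.52 ± 1.24 h, adjusted p = 0.0276) and 1.21-fold under NRF (peak ZT11.7 ± 1.12 h, adjusted p = 0.0151). The distance of 9.19 ± 1.67 h had an interval of -12.5 to -5.84 h, which included 12 h (clock time, adjusted p = 0.00110), and was 9.43 ± 1.82 h without the 2 libraries. It was lower under DRF at ZT12, where the libraries held 148, 157, 154 and 174 TPM against 226, 196, 228 and 199 (log2 difference -0.42 ± 0.0994, adjusted p = 0.00594), and this call held without any single library but was lost without replicate number 1 (adjusted p = 0.0676) or 3 (0.133). The ZT16 difference of -0.32 ± 0.0994 on the log2 scale (adjusted p = 0.0389) was lost without any of 7 of the 8 libraries of that time, DRF ZT16 replicate 1 being the exception (highest adjusted p 0.209), and also with median-of-ratios rescaling (0.162), the deposited values (0.167) and no filter (0.0607). At ZT8 all DRF libraries, 176.8 to 195.8 TPM, were below the NRF range of 196.3 to 236.6, and the difference did not pass (log2 difference -0.18 ± 0.0994, limma adjusted p = 0.383). The DRF rhythm call of Cpt2 was lost without DRF ZT4 replicate 1, DRF ZT12 replicate 1 or 3 or DRF ZT16 replicate 2, 3 or 4 (highest adjusted p 0.0682).

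Slc25a20 and Crat, the translocase and the acetyltransferase, had the narrowest spans of the 7 genes, with 1.22-fold and 1.20-fold between their highest and lowest group means. Slc25a20 had a ratio of 1.15 under DRF (peak ZT1.05 ± 1.35 h, adjusted p = 0.0143) and 1.06 under NRF (adjusted p = 0.679). Crat had 1.14 under DRF (peak ZT2.79 ± 1.20 h, adjusted p = 0.0232) and 1.06 under NRF (adjusted p = 0.451). Their curves did not pass the test of a difference by clock time (adjusted p = 0.0582 and 0.0543), and leaving out single libraries brought Slc25a20 under the threshold in 9 of 56 cases and Crat in 11 (lowest adjusted p 0.0190 and 0.0184, both without NRF ZT0 replicate 3). The DRF call of Crat was lost without DRF ZT16 replicate 4 (adjusted p = 0.0577). Neither gene was called at any single ZT with all libraries. At ZT4 all DRF libraries of Crat, 195 to 226 TPM, were above the NRF range of 173 to 193, and the difference did not pass (log2 difference 0.16 ± 0.0679, limma adjusted p = 0.313). At ZT0 the log2 difference of Slc25a20 was 0.21 ± 0.0899 (adjusted p = 0.122), and it was called without NRF ZT0 replicate 3 (0.32, adjusted p = 0.0163).

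Cpt1b, the muscle-type partner of Cpt1a, had few reads counted for it. Its course was not tested against that of Cpt1a, and like Slc25a20 and Crat it was called rhythmic under DRF and not under NRF. Under DRF its peak lay at ZT0.669 ± 1.15 h with a ratio of 1.41 (adjusted p = 0.0238), and under NRF no rhythm was called (adjusted p = 0.534). The DRF call was lost without DRF ZT12 replicate 3 (adjusted p = 0.0513), and the adjusted p was 0.00185 without DRF ZT4 replicate 2, the library highest in hepatocyte markers. The fitted peaks were 1.45 ± 3.81 h apart, an interval of -6.20 to 9.10 h, or 1.51 ± 3.33 h without the 2 libraries named above, so the distance is poorly known (clock time, adjusted p = 0.321). At ZT24 the DRF libraries held 6.38, 4.35, 5.95 and 4.96 TPM and the NRF libraries 4.69, 3.71, 3.53 and 3.67, which overlapped. At ZT8, where Cpt1a differed most in the daytime, Cpt1b held 3.28, 3.17, 3.49 and 3.77 TPM under DRF and 3.92, 4.12, 2.91 and 4.37 under NRF. The groups overlapped at all 7 times. Over the 14 group means, Cpt1a correlated with Mlycd at r = 0.81, with Slc22a5 at 0.54, with Cpt2 at 0.36, with Cpt1b at 0.34, with Crat at 0.33 and with Slc25a20 at 0.27, as a description over means that share libraries and scaling. Cpt1b correlated with Mlycd at 0.68, with Slc25a20 at 0.64 and with Crat at 0.59.

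Over single times, 14 of 49 comparisons of a shuttle gene between DRF and NRF passed, all of them in Cpt1a, Mlycd, Slc22a5 and Cpt2. At ZT8, 3 genes were called beside 0.389% of all genes (Cpt1a alone with the replicate block), and at ZT4 none beside 0.447% (limma; 2 genes at an unadjusted p under 0.05, and 0 by voom). At ZT12 there were 3 (7.74% of all genes), at ZT16 2 (6.94%), at ZT20 2 (14.8%), at ZT24 2 (8.89%) and at ZT0 2 (11.3%). The low shares at ZT4 and ZT8 are the times of the 2 libraries that went against their labels, and without those the shares were 3.45% and 3.61%, with 1 and 3 shuttle genes called. Between ZT24 and ZT0 of the same regimen, the same clock hour, none of the 7 genes differed by limma's adjusted p (lowest 0.612; 0 at an unadjusted p under 0.05 and 0 by voom) beside 0.476% of genes in either regimen, and the widest log2 difference was 0.25.

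**Figure D2:**
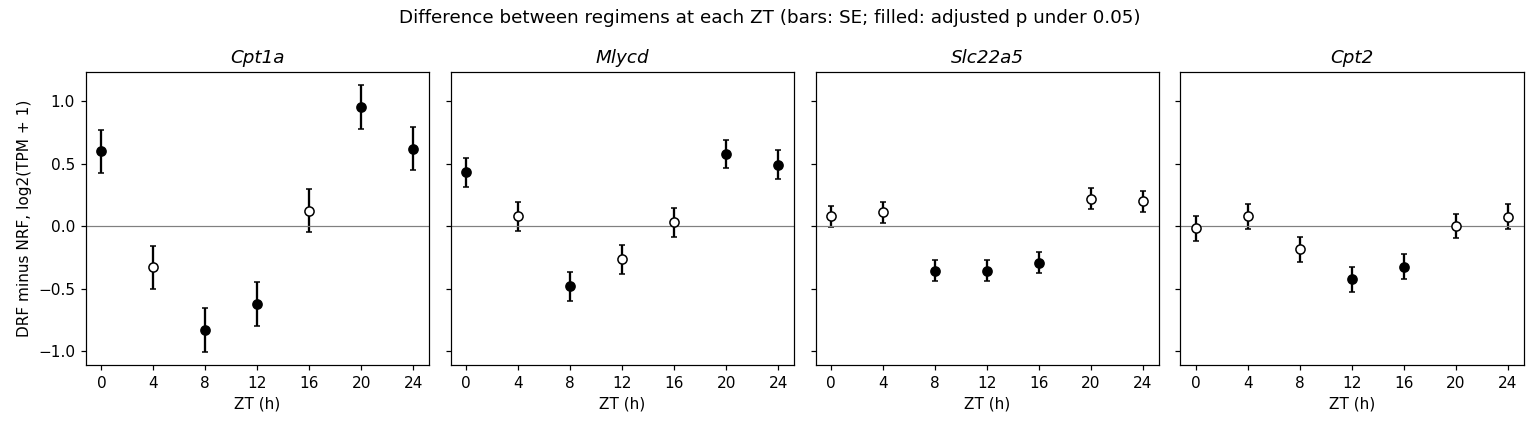
Difference DRF minus NRF on log2(TPM + 1) at each ZT in hours for Cpt1a, Mlycd, Slc22a5 and Cpt2, with SE bars and filled points where the adjusted p was under 0.05. Cpt1a runs from -0.83 at ZT8 to 0.96 at ZT20, and Mlycd from -0.48 to 0.58.

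To show where in the genome the 4 genes that shifted start, the 250 bases before their RefSeq start sites (GRCm38.p6, 5′ to 3′ on the gene's strand) are printed, with a motif match in capitals. These start sites differ from the GENCODE gene ends given above, and the Cpt1a window lies inside the GENCODE span of the gene. Promoters of 5 of the 7 genes were matched in the RefSeq table, and Cpt1b and Crat were not. The letters CACGTG (E-box), TTATGTAA (D-box), GTAAACA (forkhead), AGGTCA (nuclear receptor half-site) and AGGTCANAGGTCA (a direct repeat of it, which overlaps with the single site) were searched on both strands. The capitals in Cpt1a are the half-site read on the other strand (TGACCT), which begins 94 bases before the start site.
Cpt1a, chr19:3323051-3323300, plus strand: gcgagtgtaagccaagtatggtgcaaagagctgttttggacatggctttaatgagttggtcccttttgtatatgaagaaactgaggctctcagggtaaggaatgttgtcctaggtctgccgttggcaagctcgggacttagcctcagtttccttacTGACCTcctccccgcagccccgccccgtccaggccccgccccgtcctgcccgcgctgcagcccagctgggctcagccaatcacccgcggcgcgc
Mlycd, chr8:119394644-119394893, plus strand: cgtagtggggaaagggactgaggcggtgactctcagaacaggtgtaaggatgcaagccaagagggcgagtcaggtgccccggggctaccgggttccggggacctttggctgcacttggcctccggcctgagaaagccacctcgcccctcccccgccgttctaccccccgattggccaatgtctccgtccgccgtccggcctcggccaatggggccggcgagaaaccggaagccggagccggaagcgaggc
Slc22a5, chr11:53891704-53891953, minus strand: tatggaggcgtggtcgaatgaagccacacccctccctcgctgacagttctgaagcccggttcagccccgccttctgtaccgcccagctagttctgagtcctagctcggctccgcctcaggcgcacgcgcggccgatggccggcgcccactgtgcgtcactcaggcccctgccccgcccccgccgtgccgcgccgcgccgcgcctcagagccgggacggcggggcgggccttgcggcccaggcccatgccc
Cpt2, chr4:107923590-107923839, minus strand: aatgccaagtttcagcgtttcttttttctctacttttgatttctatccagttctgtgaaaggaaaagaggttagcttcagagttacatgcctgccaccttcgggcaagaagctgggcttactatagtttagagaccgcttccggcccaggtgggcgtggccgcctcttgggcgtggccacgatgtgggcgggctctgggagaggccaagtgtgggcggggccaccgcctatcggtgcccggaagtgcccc
Of 32851 such windows, 14% hold AGGTCA, 6.02% CACGTG, 0.819% TTATGTAA, 3.17% GTAAACA and 0.0335% the repeat. Among the 5 shuttle windows, Cpt1a holds AGGTCA and none holds the other 4. A match in so short a window is a description of letters.

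Feeding times were 12 h apart, so the curves were also compared by hours from the start of the feeding phase (ZT0 for DRF, ZT12 for NRF, so that food hour 0 sets DRF ZT0 and ZT24 beside NRF ZT12). A different curve by food time was called for 3 of the 7 genes, against 41.5% of all genes: Mlycd (adjusted p = 3.04e-09), Cpt1b (0.0154) and Cpt1a (0.0205), or 7.13e-09, 0.0150 and 0.0162 without the 2 libraries that went against their labels. The Cpt1a call was lost without ZT0, ZT16 or ZT20 (adjusted p = 0.0698, 0.635 and 0.0516) and without replicate number 2 or 4 (0.0742 and 0.161), and the Cpt1b call without ZT0, ZT12 or ZT24 (0.0615, 0.0876 and 0.185) and without replicate number 3 (0.172). For Slc22a5 the adjusted p was 0.0726, and it passed with median-of-ratios rescaling (0.00212), with voom (0.0148), with the deposited values (0.0139), without ZT0 or ZT8 (0.0342 and 0.0166), without replicate number 4 (0.0458) and without DRF ZT16 replicate 4, NRF ZT0 replicate 2 or NRF ZT8 replicate 2 or 4 (lowest 0.0378).

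For Cpt1a, 1 of 6 food-matched hours was called. At food hour 0 the log2 difference was 0.07 ± 0.151 (interval -0.23 to 0.37), at hour 8 it was 0.13 ± 0.174 and at hour 12 it was -0.08 ± 0.151. Hours 4 and 20 rest in part on the libraries that went against their labels: the difference was 0.28 ± 0.174 at hour 4 (interval -0.07 to 0.63) and 0.04 without them, and -0.0020 ± 0.174 at hour 20 (interval -0.35 to 0.35) and -0.19 without them. The call was at hour 16, with DRF ZT16 at 29.1 ± 2.98 TPM and NRF ZT4 at 42.3 ± 12.8 TPM (log2 difference -0.48 ± 0.174, adjusted p = 0.0376), a call lost without DRF ZT16 replicate 2, 3 or 4 or NRF ZT4 replicate 3 or 4 (highest adjusted p 0.252), with median-of-ratios rescaling (0.0781) and without the filter (0.0539). The NRF ZT4 libraries were spread over 30.6, 33.0, 48.1 and 57.6 TPM.

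Mlycd differed at 4 of 6 food-matched hours. It was higher under DRF at hour 0 (log2 difference 0.55 ± 0.0996, adjusted p = 1.08e-04) and hour 4 (0.47 ± 0.115, adjusted p = 0.00671, or 0.41 and 0.0355 without the 2 libraries), and lower at hour 12 (-0.35 ± 0.0996, adjusted p = 0.0172) and hour 16 (-0.36 ± 0.115, adjusted p = 0.0206). The hour 12 call was lost without DRF ZT12 replicate 1 (adjusted p = 0.106), and the hour 16 call without DRF ZT16 replicate 3 or 4 or NRF ZT4 replicate 3 or 4 (highest 0.0831) and with median-of-ratios rescaling (0.129). Cpt1b was 1.44-fold higher under DRF at hour 0 (log2 difference 0.52 ± 0.157, adjusted p = 0.0203), lost without NRF ZT12 replicate 2 or 4 (highest 0.203). Of the 6 food-matched calls, that of Mlycd at hour 0 held without any 1 replicate number, and the other 5 were each lost without at least 1. In all, 6 of 42 comparisons passed, with 2 genes at hour 0 (13.1% of all genes), 1 at hour 4 (6.47%), 0 at hour 8 (5.56%), 1 at hour 12 (9.83%), 2 at hour 16 (22.9%) and 0 at hour 20 (24.1%). At hours 8 and 20, limma gave 1 gene each at an unadjusted p under 0.05, and voom called 1 and 0. With median-of-ratios rescaling Slc22a5 was called at both (adjusted p = 0.0483 and 0.0278), and with the deposited values at hour 20 (0.0391).

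**Figure D3:**
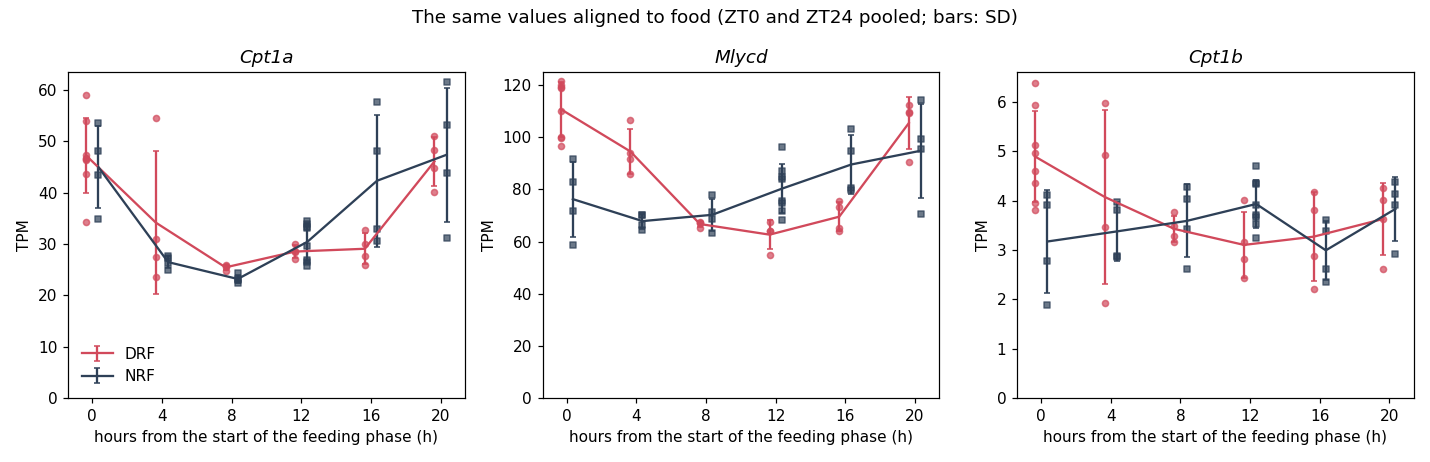
TPM of Cpt1a, Mlycd and Cpt1b against hours from the start of the feeding phase under DRF (circles) and NRF (squares); points are libraries, lines are means, bars are SD, and ZT0 and ZT24 are pooled. Cpt1a differed by test at hour 16, while Mlycd under DRF stands above NRF at hours 0 and 4 and below it at hours 12 and 16.

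Mean levels were compared as the mid-level of the fitted curves, a log2 value that differs from the plain mean of 28 libraries. The mid-level was lower under DRF for Cpt2 (log2 difference -0.15 ± 0.0377, adjusted p = 0.00443) and Slc22a5 (-0.10 ± 0.0338, adjusted p = 0.0264). The plain means, which no test compared, were 178 TPM under DRF and 193 under NRF for Cpt2, and 22.8 and 23.6 for Slc22a5. These were 2 of 7 genes, beside 26.1% of all genes. The Cpt2 call was lost without replicate number 3 (adjusted p = 0.0686) and the Slc22a5 call without number 2, 3 or 4 (0.108, 0.141 and 0.0703). The median of all genes was -0.05 on this scale, and 6.46% of the genes called were higher under DRF, against 42.4% after median-of-ratios rescaling. With that rescaling neither Cpt2 (-0.08, adjusted p = 0.0883) nor Slc22a5 (-0.04, adjusted p = 0.393) passed and Mlycd was called higher under DRF (0.13, adjusted p = 0.0376). The summed atrial markers had a higher median under DRF, the 1785 and 604 TPM given above, with ranges that overlapped widely. No test compared them between regimens, and their part was not tested. Mitochondrially encoded genes took 18.1 to 24.7% of the recovered reads of a library under DRF and 16.5 to 22.6% under NRF, and their part was not tested. Cpt1a (-0.01 ± 0.0649) and Cpt1b (0.07 ± 0.0688) did not pass.

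Other genes of fatty acid use were taken from lists chosen with earlier results of these data known. Of 10 genes of fatty acid uptake and acyl-CoA synthesis, 6 had a different curve by clock time, beside the 27.7% of all genes. Without the 2 libraries that went against their labels, where 30.6% of all genes differed, the counts by clock time were 6 of 10 for this list, 9 of 15 for beta-oxidation, 8 of 14 for the PPAR axis, 5 of 10 for malonyl-CoA control and 3 of 6 for carnitine supply. Slc27a1, a fatty acid transport protein, peaked at ZT10.3 under NRF and ZT1.81 under DRF (8.50 ± 0.558 h apart, adjusted p = 2.87e-14). Acsl1, the main cardiac acyl-CoA synthetase, peaked at ZT8.06 and ZT1.72 (6.34 ± 0.962 h), and Cd36, the fatty acid translocase, at ZT4.13 and ZT23.6 (4.54 ± 1.07 h). Slc27a4 peaked at ZT19.6 under NRF and had no rhythm called under DRF (adjusted p for the difference 0.0165).

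None of the 15 genes of mitochondrial beta-oxidation was rhythmic under NRF, beside 37.3% of all genes (limma; 5 at an unadjusted p under 0.05, and 0 by voom). Under DRF 6 were (32.4% of all genes), and 7 differed by clock time (27.7%). After median-of-ratios rescaling 1 was rhythmic under DRF (32.9%) and 4 differed by clock time (33.1%). Hadha, a subunit of the trifunctional protein, was 8.74 ± 1.69 h apart (adjusted p = 0.00163), Etfdh, which passes electrons to ubiquinone, 8.03 ± 1.77 h, Acadl, a long-chain dehydrogenase, 8.97 ± 1.79 h, and Acaa2, a thiolase, 8.83 ± 1.87 h. Their DRF peaks lay between ZT1.22 and ZT1.93, and the distances use NRF peaks without a rhythm call.

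On the PPAR axis, the PPAR nuclear receptors with their partners and targets, 7 of 14 genes differed by clock time (27.7% of all genes). Pdk4, which restrains glucose oxidation, peaked at ZT5.15 under NRF and ZT21.5 under DRF (7.69 ± 0.624 h, adjusted p = 2.83e-10). The thioesterases Acot1 (6.44 ± 0.742 h) and Acot2 (6.72 ± 0.767 h) and the lipase inhibitor Angptl4 (8.22 ± 0.798 h) also shifted. Ppara, the receptor gene itself, held 19.8 TPM under NRF and 19.5 under DRF, with an adjusted p of 0.727 for the clock-time curve.

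Among the 10 genes of malonyl-CoA control, 3 differed by clock time, a share near the 27.7% of all genes, and after median-of-ratios rescaling 5 differed, beside 33.1%. Mid1ip1, a partner of acetyl-CoA carboxylase, peaked at ZT15.3 under NRF and ZT9.48 under DRF (5.80 ± 0.644 h, adjusted p = 4.76e-08). Acacb, the mitochondrial acetyl-CoA carboxylase that makes malonyl-CoA, peaked at ZT14.3 and ZT22.5 (8.22 ± 1.84 h, adjusted p = 0.00551), though no rhythm was called under NRF alone (adjusted p = 0.0921). Prkab1, a subunit of AMP-activated kinase, shifted by 3.24 ± 0.859 h. Of 8 genes of carnitine supply and other acyl transfer, 6 were tested and 3 differed, beside the same 27.7%: Crot, which acts on medium-chain acyl groups in peroxisomes (10.6 ± 1.82 h), Aldh9a1, an enzyme of carnitine synthesis (6.92 ± 1.602 h) and Slc22a4, a related transporter (11.01 ± 2.18 h). No rhythm was called under DRF for Crot (adjusted p = 0.0867) and Slc22a4 (0.182) or under NRF for Aldh9a1 (0.0541), so these distances use peaks without a call. Bbox1 and Slc22a21 were listed under the 1 TPM minimum.

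**Figure D4:**
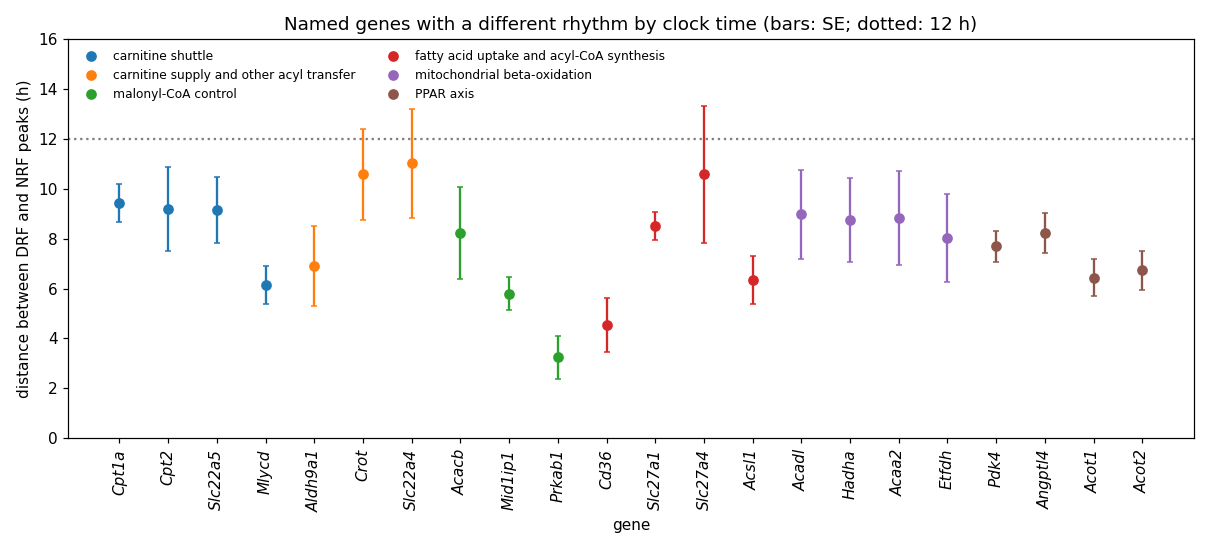
Distance in hours between the DRF and NRF peaks, with SE bars, for 22 genes whose curve differed by clock time, the 4 of the shuttle and up to 4 of each of the 5 lists with the smallest adjusted p, coloured by list. Values run from 3.24 h (Prkab1) to 11.01 h (Slc22a4, whose DRF peak had no rhythm call), and the dotted line marks 12 h.

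The 5 genes whose 14 group means were most like those of Cpt1a were Ing5 (r = 0.955), Pik3c3 (0.942), Lipe (0.939), Rcbtb1 (0.934) and Fbxo21 (0.922). Among those most like Cpt1b, values were lower, with Ninl at 0.861, Rmdn2 at 0.840, 1010001N08Rik at 0.831 and Mtg2 at 0.809. Both rankings are descriptions over means of log2(TPM + 1), with library and scaling shared by all genes.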

How the data were processed

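The authors deposited one table of values named TPM for 22864 genes in 56 libraries (unit "other"). Values were not linear: each was a library constant times log2(1 + depth-scaled reads), divided by exon length. Per the labels, polyA libraries (NEBNext Ultra, paired reads) were sequenced, and the submitters' processing notes name HISAT2 2.0.5, featureCounts 1.5.0-p3 and mm10. How reads shared by genes and strand were handled is not given in the sources used here. Whole reads were recovered from the steps of the deposited values, with exon lengths from GENCODE M21 (GRCm38): of 1197205 values tested (up to 100000 reads each), 100% lay no further than 0.1 reads from an integer. The annotated length served for 21984 genes, a searched length for 859 (Cpt1a among them), and 21 too abundant genes kept the annotated length. Depth was 29.5 to 53.4 M reads. The planned tests assumed TPM, so linear TPM recomputed from these reads replaced the deposited values.

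The 13869 genes averaging 1 TPM or more were fitted on log2(TPM + 1) with limma 3.58.1 in R 4.3.3 (trend, all 56 libraries, or the 28 of a regimen for a rhythm). Fold differences are on the log2(TPM + 1) scale and understate low genes. A 24-h cosine and sine gave rhythm, peak and amplitude, with SEs by error propagation. Comparisons were by clock time, by food time (NRF moved by 12 h), at single ZTs, at food-matched times and of mean levels. Curves were compared by moderated F tests and single values by two-sided moderated tests, with p-values adjusted over all genes (Benjamini-Hochberg, 0.05). MetaCycle was not used. Scripts were tested on simulated data. The members and lists were chosen with earlier results of these data known. Named genes were all 7 members, up to 4 of each list by the smallest adjusted p for a different curve by clock time, and the 5 most like Cpt1a and Cpt1b, of which 1 is not reported here. Ppara, Bbox1, Slc22a21 and Fasn were named after their values were seen. Alternatives were a pseudocount of 0.1, no filter, median-of-ratios rescaling, the deposited values, limma-voom on reads, a replicate block, and leaving out each replicate number, ZT or library.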

Additional observations from a re-analysis of the deposited data

Results flagged for a closer look

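In 12 of 98 groups of 4 libraries, 1 library of a shuttle gene lay far from the other 3 relative to the range of its group. Chance gives about 1 in 20 for a single group. The groups are 7 genes in the same 56 libraries, so they are not independent, and this share does not measure an excess. NRF ZT24 replicate 2 was high for 3 genes: Cpt2 at 210.8 TPM (others 158.6 to 162.6), Crat at 224.6 (others 185.3 to 191.4) and Mlycd at 96.27 (others 71.53 to 75.61). NRF ZT0 replicate 2 was low for Cpt1a at 26.81 TPM (others 33.13 to 33.88) and for Mlycd at 68.08 (others 84.15 to 87.08). Slc25a20 was high in NRF ZT8 replicate 1 at 100.3 TPM (others 84.42 to 86.18), a library that went against its label, in NRF ZT16 replicate 4 at 90.89 (others 83.19 to 84.39) and in NRF ZT20 replicate 3 at 96.93 (others 83.27 to 85.5). Cpt2 was low in DRF ZT20 replicate 2 at 154.4 TPM (others 192.2 to 198.7). Mlycd was low in DRF ZT8 replicate 3 at 65.22 TPM (others 67.12 to 67.38) and in DRF ZT20 replicate 1 at 90.54 (others 109.3 to 112.3). Cpt1b was high in NRF ZT24 replicate 1 at 4.695 TPM (others 3.529 to 3.71).

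The daily curve differed between regimens by the test of the difference itself for 4 genes, whose DRF and NRF peaks were 9.427 h (Cpt1a), 9.192 h (Cpt2), 9.147 h (Slc22a5) and 6.135 h (Mlycd) apart. As DRF minus NRF the shift of Slc22a5 was positive, while those of Cpt1a, Cpt2 and Mlycd were negative.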

How the results depend on the processing

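The differences by clock time of Cpt1a, Mlycd and Slc22a5 held under every alternative run, and that of Cpt2 under all but leaving out ZT12 (adjusted p = 0.0513). No value that passed the test changed sign. Of the 7 genes, 4 were rhythmic under DRF after median-of-ratios rescaling (32.9% of all genes) and with the deposited values, 4 without ZT0 or ZT16 and 3 without ZT12. For the other counts in this paragraph the share of all genes called in the same setting is not given. How far those counts moved with the number of libraries was not tested. Genes rhythmic under NRF fell to 2 without ZT24. A different mean level was called for 1 gene with rescaling or voom, for 0 with the deposited values, and for 1 without ZT0, ZT8 or ZT16. The cause was not tested. Leaving out 1 replicate number gave 2 to 3 genes rhythmic under NRF, 3 to 4 under DRF, 4 different by clock time throughout, 2 to 3 by food time, 0 to 2 in mean level, 5 to 11 of 49 comparisons at single ZTs and 2 to 4 of 42 at food-matched times, with 14 fewer libraries. Leaving out 1 library gave 4, 5 to 7, 4 to 6, 3 to 4, 2, 11 to 15 and 4 to 7 in that order. With the replicate number as a block the counts were 4, 7, 4, 3, 2, 12 and 6 in that order, and no count moved by over 1.5 times. No pairing by equal numbers was seen on average: deviations from group means correlated at 0.017 for equal numbers and -0.0057 for different ones. Of 28 DRF and NRF pairs at the same ZT, 1 exceeded 0.1. A pairing within only part of the groups was not tested. Cpt1b had the fewest reads, 96 to 399 per library.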

Other observations

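Mean levels over the day gave another view of the same lists. Of 15 beta-oxidation genes, 5 were higher under DRF and 1 lower, and after median-of-ratios rescaling 11 were higher and 0 lower. Over all 13869 genes tested, 1.69% were higher and 24.4% lower, and after rescaling 5.53% and 7.51%. On the PPAR axis 4 were higher and 3 lower (4 and 1 after rescaling). Of the 10 malonyl-CoA control genes 2 were higher and 1 lower (3 and 0), of the 10 uptake and synthesis genes 0 were higher and 3 lower (2 and 1), and of the 6 tested genes of carnitine supply 0 passed with limma (1 and 0 after rescaling, 1 at an unadjusted p under 0.05, and 1 called by voom). Fasn, fatty acid synthase, had a higher mid-level of the fitted curve under DRF (log2 difference 0.54 ± 0.185, adjusted p = 0.0260), beside plain means of 27.7 TPM under DRF and 16.6 under NRF. It was named after its values were seen. The lists were chosen with earlier results known, and no test of a whole list was made.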
